A study of Mus musculus with 12 samples.

Results

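The genes compared here are those measured in growth medium between C2C12 cells labelled as Mapk14 knockout and wild-type C2C12 cells. Of the 55416 genes in the deposited count table, 13250 passed a filter on low counts and form the comparison. It contrasts 6 of the series' 12 libraries. C2C12 is a mouse skeletal myoblast line, obtained from ATCC, that divides in serum-rich medium and fuses into myotubes when serum is withdrawn. The WT GM group held wild-type cells and the KO GM group held Mapk14-/- cells, with 3 libraries labelled as biological replicates in each. Both were grown to part confluence in medium with 10% fetal bovine serum and were then kept in it for 5 more days before total RNA was taken. The remaining 6 libraries were WT DM and KO DM cells moved for those 5 days into medium with 2% horse serum. Their levels are set against growth medium only where stated. All 12 libraries shared the low-count filter, the scaling and the estimate of spread, so the DM libraries also enter the growth-medium p-values. The labels give no number of knockout clones, no editing method and no rescue line, so the knockout stands as 1 line as far as the labels say. Nothing says that the replicates were separate derivations of that line, so the p-values measure the spread between these libraries only.

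Mapk14 encodes p38α, a kinase switched on by stress signals, cytokines and cell contact. In myoblasts p38 is known to act with the MyoD family and the MEF2 factors at muscle promoters, and to favour exit from the cell cycle before fusion. This comparison asks how the 2 lines differ without the serum reduction used to induce differentiation. The counts measure neither fusion nor the share of cells that had begun to differentiate during the 5 further days in growth medium.

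The GM libraries held 9134485 to 11536396 counts, of which 99.9% lay in tested genes. Along the first principal component, with 61.1% of the variance, the 3 KO GM libraries lay apart from the 3 WT GM libraries. The second, with 13.8%, set the replicate 3 library of each group apart from the others. All libraries carry 1 batch label. The summed level of 10 myoblast markers, Des and Myod1 among them, was 2359 to 2565 CPM (a gene count scaled to the TMM-adjusted total of its library) in WT GM and 1102 to 1365 CPM in KO GM. Markers of other cell types were summed the same way, 10 genes a list, and their part in the results was not tested. The endothelial sum reached at most 1.29 CPM, and the leukocyte sum was 34.3 to 47.7 CPM in WT GM and 39.5 to 46.1 CPM in KO GM, with Ptprc and 5 others of the 10 at 3 or fewer counts over the 6 libraries. The epithelial sum was 11.6 to 16.5 CPM in WT GM and 4.40 to 6.20 CPM in KO GM. Of those 10 markers, 7 were at 3 or fewer counts over the 6 libraries. Of the 2 tested, 1 was called higher and 1 lower. The neural sum was 78.7 to 104.5 CPM in WT GM and 15.1 to 19.1 CPM in KO GM, with 4 of the 10 at 3 or fewer counts. Of the 3 neural markers tested, 2 were called lower and 0 higher. Sums of fibroblast markers overlapped, at 3093 to 5443 CPM in WT GM and 2676 to 4529 CPM in KO GM. Single members did differ: of the 6 tested, 2 were called lower, Dcn among them, and 1 higher.

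The Mapk14 transcript itself did not fall in KO GM. It was at 130.1, 135 and 108 CPM in the WT GM libraries and 130.3, 136 and 137 CPM in the KO GM libraries (log2 fold change 0.11 ± 0.08, adjusted p = 0.35 by edgeR's quasi-likelihood test, Benjamini-Hochberg adjusted; errors of log2 values are standard errors throughout). The groups overlapped. A gene-level count does not show where in the gene the reads fall, so this value does not check the label. Every direction given for KO GM is that of the libraries so labelled. The other p38 kinases of muscle cells also overlapped between groups. Mapk11, encoding p38β, was at 35.5, 36.0 and 27.4 CPM in the WT GM libraries and 30.1, 29.4 and 23.6 CPM in the KO GM libraries (log2 fold change -0.25 ± 0.14, adjusted p = 0.22). Mapk12, encoding p38γ, was at 19.6, 20.5 and 15.1 CPM in the WT GM libraries and 24.4, 18.98 and 17.1 CPM in the KO GM libraries (log2 fold change 0.13 ± 0.14, adjusted p = 0.59).

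In all, 2740 genes (20.7% of those tested) were called at an adjusted p below 0.05. Of these, 1330 (10.0%) were higher and 1410 (10.6%) lower in KO GM. The size of the changes was less even than their number. At 2-fold or more, 202 genes (1.52%) were higher and 577 (4.35%) lower, so falls made up 74.1% of those changes. At 4-fold or more, 68 were higher and 309 lower. The median log2 fold change of all tested genes was -0.0049. In 4286 genes (32.3%), called or not, all 3 KO GM libraries lay on 1 side of all 3 WT GM libraries, and 2566 of the 2740 called genes were among them.

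**Figure D1:**
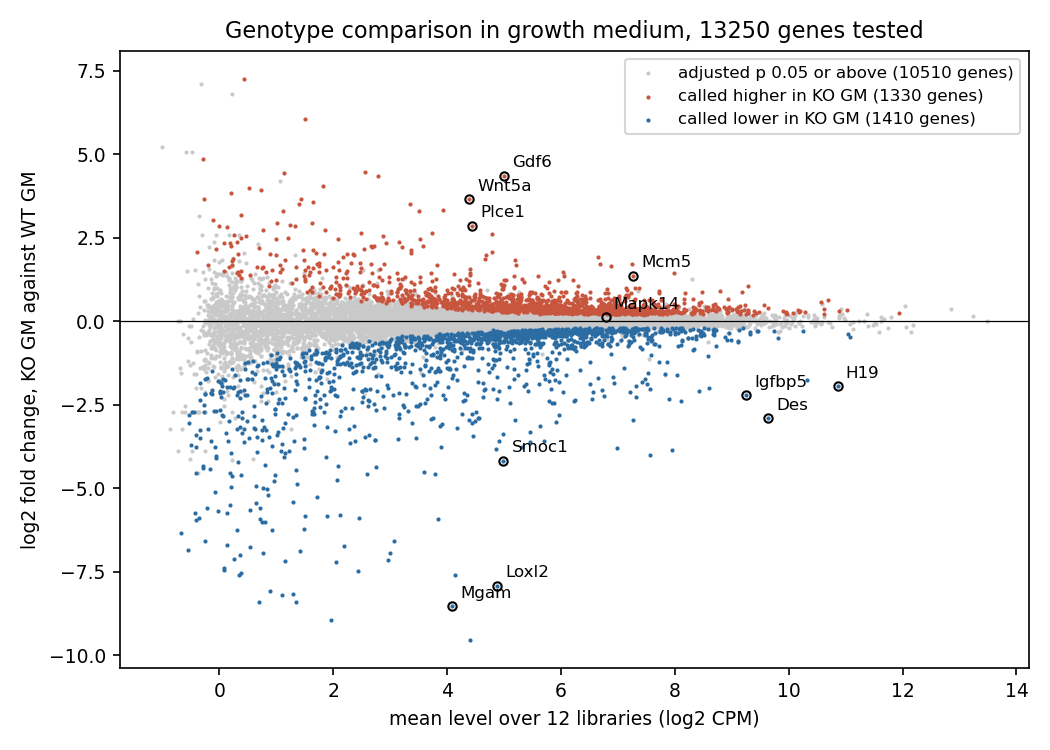
Each point is 1 of the 13250 tested genes, placed by its mean level over the 12 libraries (log2 CPM) and its log2 fold change in KO GM against WT GM, with 1330 called higher and 1410 called lower. Mapk14 sits at the zero line, the deepest falls reach past those of Loxl2 and Mgam, and the fold of a gene at 0 counts in 1 group depends on the fit's prior count.

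The deepest falls were in genes close to silent in KO GM. One was Loxl2, a lysyl oxidase family enzyme that cross-links collagen, at 49.7, 52.7 and 64.6 CPM in the WT GM libraries and 0.215, 0.347 and 0.0887 CPM in the KO GM libraries (log2 fold change -7.92 ± 0.27, adjusted p = 1.4e-14). Every WT GM library was thus far above every KO GM library. Mgam, an intestinal-type maltase-glucoamylase, was at 27.8, 22.9 and 32.1 CPM in the WT GM libraries and 0, 0 and 0.177 CPM in the KO GM libraries (log2 fold change -8.53 ± 0.38, adjusted p = 7.2e-13). Nefl, the light neurofilament subunit, was at 47.8, 32.9 and 34.7 CPM in the WT GM libraries and 0, 0.433 and 0.0887 CPM in the KO GM libraries (log2 fold change -7.60 ± 0.35, adjusted p = 1.8e-10). Its partner Nefm, the medium subunit, was at 32.0, 21.3 and 22.6 CPM in the WT GM libraries and 1.61, 1.56 and 0.177 CPM in the KO GM libraries (log2 fold change -4.52 ± 0.41, adjusted p = 5.7e-06). Both neurofilament genes were therefore expressed in WT GM and nearly absent in KO GM. Nefl is also 1 of the 2 summed neural markers called lower, and Tubb3 is the other. The secreted proteoglycan Dcn (decorin) was at 11.9, 14.2 and 21.6 CPM in the WT GM libraries and 0.107, 0.260 and 0.355 CPM in the KO GM libraries (log2 fold change -5.93 ± 0.34, adjusted p = 4.3e-11). Smoc1, a secreted calcium-binding matrix protein, was at 76.4, 75.0 and 66.5 CPM in the WT GM libraries and 3.97, 4.77 and 3.28 CPM in the KO GM libraries (log2 fold change -4.17 ± 0.17, adjusted p = 3.3e-13). Klhl13, an adaptor of a cullin ubiquitin ligase, fell by 6.95 on the log2 scale and Rin3, a RAB5 exchange factor, by 4.56. Tppp3, a tubulin-binding protein, fell by 3.84. The other large falls were in Myl1, Myh3 and Actc1, parts of the contractile filaments. The size of some of these folds rested on the few counts of 1 knockout library. Without KO GM replicate 3, both remaining KO GM libraries held 0 counts of Mgam, the Klhl13 log2 change was -7.76, the Actc1 log2 change -4.89 and the Myh3 log2 change -4.48. Without KO GM replicate 2, the Nefl log2 change was -9.30.

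Of the called genes, 38 had 0 counts in all 3 KO GM libraries, and 16 of these also had 0 counts in all 3 KO DM libraries. Only 4 called genes were at 0 in all 3 WT GM libraries. A floor of 3 counts over the KO GM group equals 0.0933 CPM and gives lower bounds. Mef2c, encoding a MADS-box factor that acts with MyoD and myogenin, was at 5.76, 7.20 and 14.6 CPM in the WT GM libraries and 0 CPM in all 3 of the KO GM libraries, at least 98.4-fold lower (adjusted p = 5.4e-04). Il2rg, the common gamma chain of several cytokine receptors, was at 5.45, 6.34 and 6.69 CPM in the WT GM libraries and 0 CPM in all 3 of the KO GM libraries, at least 66.0-fold lower (adjusted p = 2.8e-09). Mef2c was not silent everywhere in the knockout: the KO DM libraries held 37 counts of it in all, against 1 of Il2rg.

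The largest rises were smaller than the largest falls. The genes with the largest rises encode secreted factors, receptors and signalling proteins of several kinds. Gdf6, a ligand of the BMP group, was at 0.720, 0.322 and 1.10 CPM in the WT GM libraries and 13.6, 9.62 and 21.8 CPM in the KO GM libraries (log2 fold change 4.36 ± 0.41, adjusted p = 1.3e-05). Wnt5a, a ligand best known for signalling without β-catenin, was at 2.57, 3.33 and 2.30 CPM in the WT GM libraries and 36.2, 32.4 and 35.5 CPM in the KO GM libraries (log2 fold change 3.66 ± 0.15, adjusted p = 6.4e-14). The 3 KO GM libraries agreed closely on Wnt5a, while those of Gdf6 spread more than 2-fold. Plce1, a phospholipase C that RAS proteins activate, was at 3.09, 4.73 and 5.99 CPM in the WT GM libraries and 29.2, 32.7 and 38.4 CPM in the KO GM libraries (log2 fold change 2.86 ± 0.18, adjusted p = 1.2e-10). Cd28, known as a T cell co-receptor, was at 4.53, 4.41 and 3.99 CPM in the WT GM libraries and 26.0, 22.1 and 32.6 CPM in the KO GM libraries (log2 fold change 2.64 ± 0.24, adjusted p = 1.8e-07), in libraries where Ptprc and Cd3e were at 3 or fewer counts. Gpr141, an orphan receptor, rose by a log2 value of 3.29, and Adgrg2, an adhesion receptor, by 2.24. Mmp3, a matrix protease, rose by 2.46 and Rgs17, which speeds up GTP hydrolysis by G proteins, by 2.13. The secreted proteins Megf6, Nell2 and Edil3 rose by 2.62, 2.55 and 2.08, and the cytokine Tnfsf15 by 2.04. Without WT GM replicate 3, the Edil3 log2 change was 2.76.

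**Figure D2:**
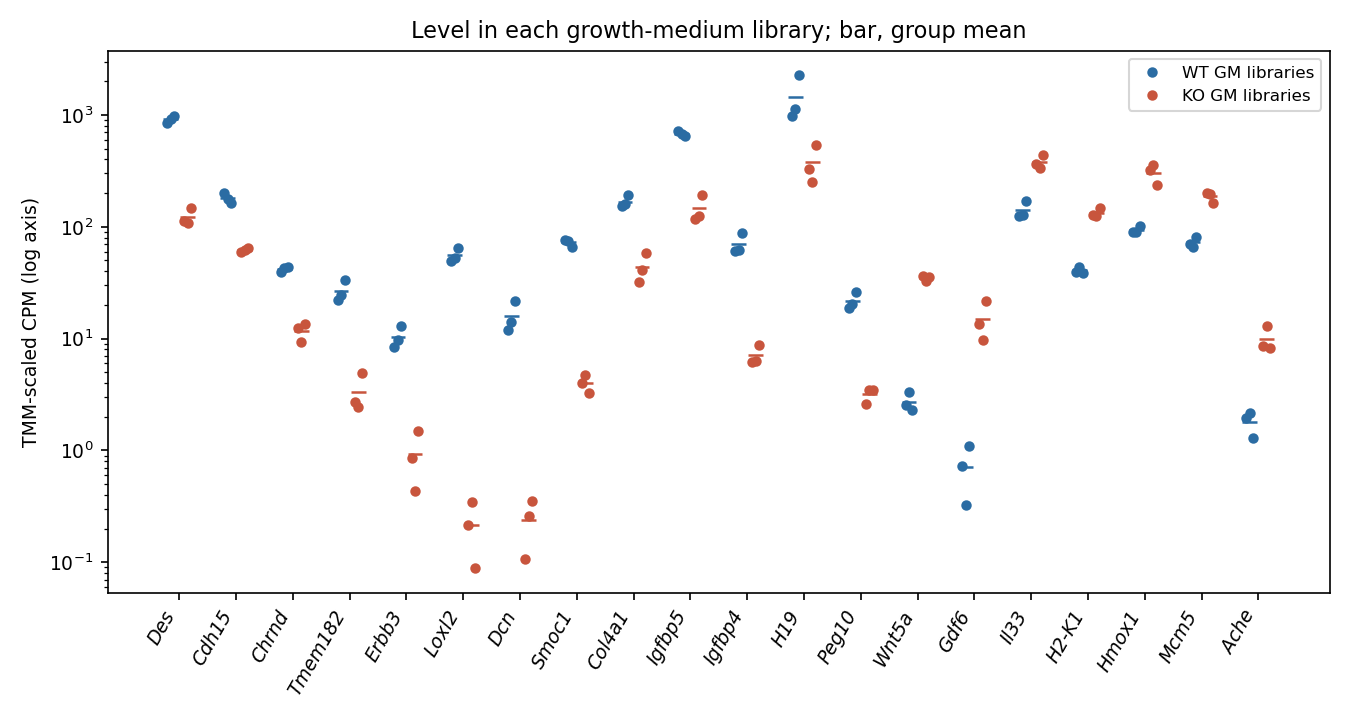
Points give the TMM-scaled CPM of 20 genes in each of the 3 WT GM and 3 KO GM libraries on a log axis, with a bar at each group mean. In all 20 the groups do not overlap, which follows largely from picking them among genes called in these data. Over all tested genes the groups do not overlap in 32.3%. Loxl2 and Dcn are below 0.4 CPM in every KO GM library, and Wnt5a, Gdf6, Il33, H2-K1, Hmox1, Mcm5 and Ache are the 7 that are higher in KO GM.

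Genes of the muscle programme were lower in KO GM, in medium without the serum reduction. Whether some WT GM cells had begun to differentiate during the 5 further days in growth medium was not tested. Of 15 myogenic transcription factors tested, 5 fell (33.3%, against 10.6% of all tested genes) and 1 rose (6.67%, against 10.0%). Myog, encoding myogenin, which commits myoblasts to differentiate, was at 127, 143 and 219.7 CPM in the WT GM libraries and 31.4, 16.8 and 45.9 CPM in the KO GM libraries (log2 fold change -2.38 ± 0.34, adjusted p = 0.0013). Myf5, a factor of proliferating myoblasts, was at 17.9, 16.9 and 21.7 CPM in the WT GM libraries and 3.44, 5.55 and 5.94 CPM in the KO GM libraries (log2 fold change -1.90 ± 0.17, adjusted p = 2.6e-08). Myod1 was at 138, 135 and 111 CPM in the WT GM libraries and 62.6, 68.0 and 64.5 CPM in the KO GM libraries (log2 fold change -0.97 ± 0.09, adjusted p = 4.3e-08). All 3 genes were thus detected in KO GM, with no overlap between groups. In bulk RNA, fewer muscle-committed cells and less of these transcripts per cell cannot be told apart. Mef2a, of the same family as Mef2c, was at 99.2, 113 and 132 CPM in the WT GM libraries and 108, 95.2 and 113 CPM in the KO GM libraries, with overlapping groups (log2 fold change -0.13 ± 0.09, adjusted p = 0.36).

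The falls ran through all 3 parts of the contractile apparatus. Of thick filament genes, 13 of 19 fell and 0 rose, with a median log2 fold change of -2.13. Of thin filament genes, 15 of 17 fell and 0 rose (median -1.77), and of Z-disc and assembly genes, 20 of 23 fell and 0 rose (median -2.11, or -1.96 with the 2 members at 0 counts set at their bounds). The thick filament median was -2.74 without KO GM replicate 3 and -1.62 without WT GM replicate 3. The same median over all tested genes was -0.0049. Des, the intermediate filament that links Z-discs and is already made in myoblasts, was among the most precise falls, at 839, 924 and 984 CPM in the WT GM libraries and 112, 109 and 147 CPM in the KO GM libraries (log2 fold change -2.90 ± 0.10, adjusted p = 6.4e-14). Neb, the giant ruler protein of the thin filament, was at 23.5, 30.1 and 47.9 CPM in the WT GM libraries and 4.72, 2.08 and 5.76 CPM in the KO GM libraries (log2 fold change -3.03 ± 0.38, adjusted p = 5.7e-04). Tnnc2, the fast-muscle calcium sensor, was at 17.3, 24.3 and 34.6 CPM in the WT GM libraries and 1.72, 1.47 and 3.01 CPM in the KO GM libraries (log2 fold change -3.60 ± 0.36, adjusted p = 7.0e-05). In both of these the WT GM replicate 3 library was the highest of the 6, as it was for Myl1, Myh3 and Actc1, and Des varied least between replicates. Reads of actins and of clustered myosin heavy chains can be shared between near-identical copies, so single values of Actc1 and Myh3 are uncertain. Fitted with the 6 GM libraries alone, 9 thick filament, 10 thin filament and 14 Z-disc genes were still called lower and none higher. Without genes on chromosomes 8 and 11, 9 of 12, 14 of 16 and 17 of 20 fell.

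Genes of myoblast fusion and of the neuromuscular junction fell more often than they rose. Called lower were 33.3% and 53.8% of them, in that order, against 10.6% of all tested genes. Called higher were 14.3% and 7.69%, near the 10.0% of all tested genes. Of 21 genes of myoblast fusion and adhesion, 7 fell and 3 rose (median -0.03); 0 rose with the 6 GM libraries alone, without WT GM replicate 1 or without WT GM replicate 2, and 1 rose without KO GM replicate 1. Cdh15, the cadherin of myoblasts, was at 199.96, 176 and 164 CPM in the WT GM libraries and 59.9, 61.7 and 64.0 CPM in the KO GM libraries (log2 fold change -1.54 ± 0.08, adjusted p = 1.1e-11). Tmem182, a muscle membrane protein tied to fusion, was at 22.1, 24.4 and 33.4 CPM in the WT GM libraries and 2.68, 2.43 and 4.97 CPM in the KO GM libraries (log2 fold change -2.97 ± 0.20, adjusted p = 1.1e-08). Mymx, one of the 2 muscle fusogens, was at 6.58, 7.52 and 9.88 CPM in the WT GM libraries and 1.72, 0.780 and 2.66 CPM in the KO GM libraries (log2 fold change -2.22 ± 0.27, adjusted p = 3.3e-06). Of 13 neuromuscular junction genes, 7 fell and 1 rose. The acetylcholine receptor subunits Chrnd and Chrng were at 41.9 ± 2.31 CPM in WT GM and 11.8 ± 2.23 CPM in KO GM and at 53.9 ± 5.01 CPM in WT GM and 12.9 ± 6.45 CPM in KO GM (SD, n = 3 each), with log2 fold changes of -1.84 ± 0.12 and -2.06 ± 0.27. Musk, the receptor kinase that clusters them, was at 17.3, 16.2 and 20.1 CPM in the WT GM libraries and 2.36, 2.43 and 5.41 CPM in the KO GM libraries (log2 fold change -2.37 ± 0.21, adjusted p = 6.5e-08). Ache, which breaks down acetylcholine, went the other way, at 1.95, 2.15 and 1.297 CPM in the WT GM libraries and 8.59, 13.1 and 8.16 CPM in the KO GM libraries (log2 fold change 2.47 ± 0.31, adjusted p = 2.9e-06). Erbb3, the neuregulin receptor, was at 8.33, 9.78 and 12.9 CPM in the WT GM libraries and 0.859, 0.433 and 1.51 CPM in the KO GM libraries (log2 fold change -3.45 ± 0.26, adjusted p = 1.4e-09). It showed the largest of the 5 falls among 24 receptor tyrosine kinases, of which 0 rose. Those 5 falls are 20.8% of the list, against 10.6% of all tested genes. The number of falls in this list was 3 without KO GM replicate 1 and 3 without KO GM replicate 2.

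To set the fallers and risers beside their promoters, RefSeq promoters of build GRCm38.p6 were searched on both strands from 250 bases before to 50 after the first listed start. Of 13240 tested symbols, 9866 had an entry. The E-box CAGCTG, a sequence that MyoD and myogenin bind, was in 28 of the 57 promoters found for muscle-list genes called lower (49.1%), and in 36 of 81 (44.4%) for all tested muscle-list genes, called or not. It was in 15.0% of tested genes' promoters and in 16.1% of all 27025 promoters of the same length. Among all 1047 promoters of genes called lower it was in 19.9%, and among 983 of genes called higher in 14.1%. The motif belongs to the wider family CANNTG, which was in 82.5% of the muscle promoters and 62.3% of those of tested genes. An E2F motif (TTTCCCGC, TTTCGCGC, TTTGCCGC or TTTGGCGC) was in 11 of 29 promoters of replication genes called higher (37.9%) and in 13 of 35 (37.1%) for the whole replication list, against 4.20% of tested genes and 2.32% of all promoters. The letters TTTGAA, the cell cycle homology region of mitotic genes, were in 17 of the 25 mitosis promoters (68.0%) and in 11.8% of tested genes, but in 8 of 25 (32.0%) when the window ended at the start site. With that shorter window the E2F motif was in 8 of 29 promoters of replication genes called higher (27.6%) and 9 of 35 of the whole list (25.7%). It was then in 3.52% of tested genes' promoters. A match is a string of letters and not a shown binding site. As examples, chosen after the matches were seen, the 250 bases before the start of 3 muscle genes that fell and 2 replication genes that rose are given in the gene's direction. For the muscle genes the capitals mark every CANNTG, and for the replication genes the E2F motif, where 2 overlapping matches are 1 run.
Des, chr1:75360042-75360291, + strand: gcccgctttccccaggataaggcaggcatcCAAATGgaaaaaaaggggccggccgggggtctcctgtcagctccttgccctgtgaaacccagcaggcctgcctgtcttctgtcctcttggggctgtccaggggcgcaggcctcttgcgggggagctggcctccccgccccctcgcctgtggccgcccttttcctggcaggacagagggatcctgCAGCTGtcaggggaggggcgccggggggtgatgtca
Chrng, chr1:87205561-87205810, + strand: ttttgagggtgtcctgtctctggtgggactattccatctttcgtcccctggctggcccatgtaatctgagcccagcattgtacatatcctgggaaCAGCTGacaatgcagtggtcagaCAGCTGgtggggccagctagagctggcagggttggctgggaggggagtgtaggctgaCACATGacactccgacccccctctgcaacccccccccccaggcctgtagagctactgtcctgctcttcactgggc
Myog, chr1:134289754-134290003, + strand: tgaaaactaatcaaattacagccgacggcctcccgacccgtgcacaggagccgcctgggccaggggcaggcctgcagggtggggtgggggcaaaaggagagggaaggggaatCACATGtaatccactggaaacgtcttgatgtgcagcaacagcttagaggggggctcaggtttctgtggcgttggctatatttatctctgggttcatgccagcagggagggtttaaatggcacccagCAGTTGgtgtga
Mcm5, chr8:75109259-75109508, + strand: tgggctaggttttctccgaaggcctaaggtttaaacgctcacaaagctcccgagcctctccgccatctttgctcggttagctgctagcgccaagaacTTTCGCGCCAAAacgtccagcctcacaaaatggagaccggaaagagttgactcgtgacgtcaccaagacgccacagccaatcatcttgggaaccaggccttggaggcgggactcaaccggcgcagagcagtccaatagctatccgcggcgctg
Cdc6, chr11:98907901-98908150, + strand: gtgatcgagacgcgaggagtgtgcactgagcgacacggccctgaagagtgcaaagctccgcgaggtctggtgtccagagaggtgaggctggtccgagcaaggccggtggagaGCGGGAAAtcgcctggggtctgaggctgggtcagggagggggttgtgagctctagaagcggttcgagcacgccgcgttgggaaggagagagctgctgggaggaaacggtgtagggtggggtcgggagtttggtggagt
The Des window held 1 CAGCTG among 2 CANNTG and the Chrng window 2 among 3, while neither of the 2 CANNTG in the Myog window was CAGCTG. All 3 genes fell.

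The machinery of DNA replication moved opposite to the muscle genes. Of 44 genes of DNA replication and S phase, 34 rose and 0 fell, with a median log2 fold change of 0.57. Mcm5, a subunit of the replicative helicase, was at 70.7, 66.2 and 81.3 CPM in the WT GM libraries and 202, 196 and 164 CPM in the KO GM libraries (log2 fold change 1.36 ± 0.09, adjusted p = 2.0e-10). Cdc6, which loads that helicase at origins, was at 23.0, 21.1 and 24.4 CPM in the WT GM libraries and 53.04, 55.1 and 46.6 CPM in the KO GM libraries (log2 fold change 1.17 ± 0.10, adjusted p = 1.2e-08). Chaf1b, a subunit of the histone chaperone that follows the fork, was at 13.9, 12.6 and 16.8 CPM in the WT GM libraries and 35.4, 30.9 and 27.7 CPM in the KO GM libraries (log2 fold change 1.11 ± 0.12, adjusted p = 3.4e-07). Gins3, a helicase partner, rose by a log2 value of 1.14 ± 0.12. Mcm5 and Gins3 lie on chromosome 8 and Cdc6 on chromosome 11, 2 chromosomes whose genes tended to be higher in KO GM; without these chromosomes 27 of 36 replication genes rose, with a median of 0.54. Ccne1, a cyclin E gene, and E2f1 are members of the same list of 44, so their values are no separate support. Ccne1 was at 18.4 ± 1.81 CPM in WT GM and 26.5 ± 4.08 CPM in KO GM and E2f1 at 44.97 ± 6.43 CPM in WT GM and 64.8 ± 6.15 CPM in KO GM (SD, n = 3 each), log2 fold changes of 0.53 ± 0.12 and 0.53 ± 0.10.

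Genes of mitosis moved less and less evenly. Of 30, 9 rose (30%, against 10.0% of all tested genes) and 0 fell (median 0.27). The count of rises ranged from 5 without KO GM replicate 1 or WT GM replicate 2 to 15 without WT GM replicate 3. Without chromosomes 8 and 11, 6 of 27 rose. Top2a, the topoisomerase of dividing cells, was at 48.4, 50.6 and 80.8 CPM in the WT GM libraries and 107, 102 and 97.9 CPM in the KO GM libraries (log2 fold change 0.77 ± 0.17, adjusted p = 0.0073). Its WT GM replicate 3 library lay between the other 2 wild-type libraries and the knockout. Mki67 was at 17.5, 18.6 and 36.4 CPM in the WT GM libraries and 39.5, 35.8 and 37.1 CPM in the KO GM libraries (log2 fold change 0.63 ± 0.24, adjusted p = 0.11), and here that library was within the KO GM range. The Mki67 log2 change was called as a rise without WT GM replicate 3 (adjusted p = 1.5e-07). Mybl2, a factor of the complex that drives mitotic genes, did not share that pattern, at 13.3, 12.6 and 12.3 CPM in the WT GM libraries and 24.5, 20.6 and 20.3 CPM in the KO GM libraries (log2 fold change 0.77 ± 0.12, adjusted p = 3.8e-05). Of brakes on the cycle, Cdkn1a, encoding p21, was at 427, 382 and 379.9 CPM in the WT GM libraries and 258, 274 and 265 CPM in the KO GM libraries (log2 fold change -0.58 ± 0.07, adjusted p = 3.9e-06). Rbl1 (p107) and Rbl2 (p130), pocket proteins related to RB, were both higher, with log2 fold changes of 0.64 ± 0.11 and 0.71 ± 0.08. Rbl2 lies on chromosome 8.

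**Figure D3:**
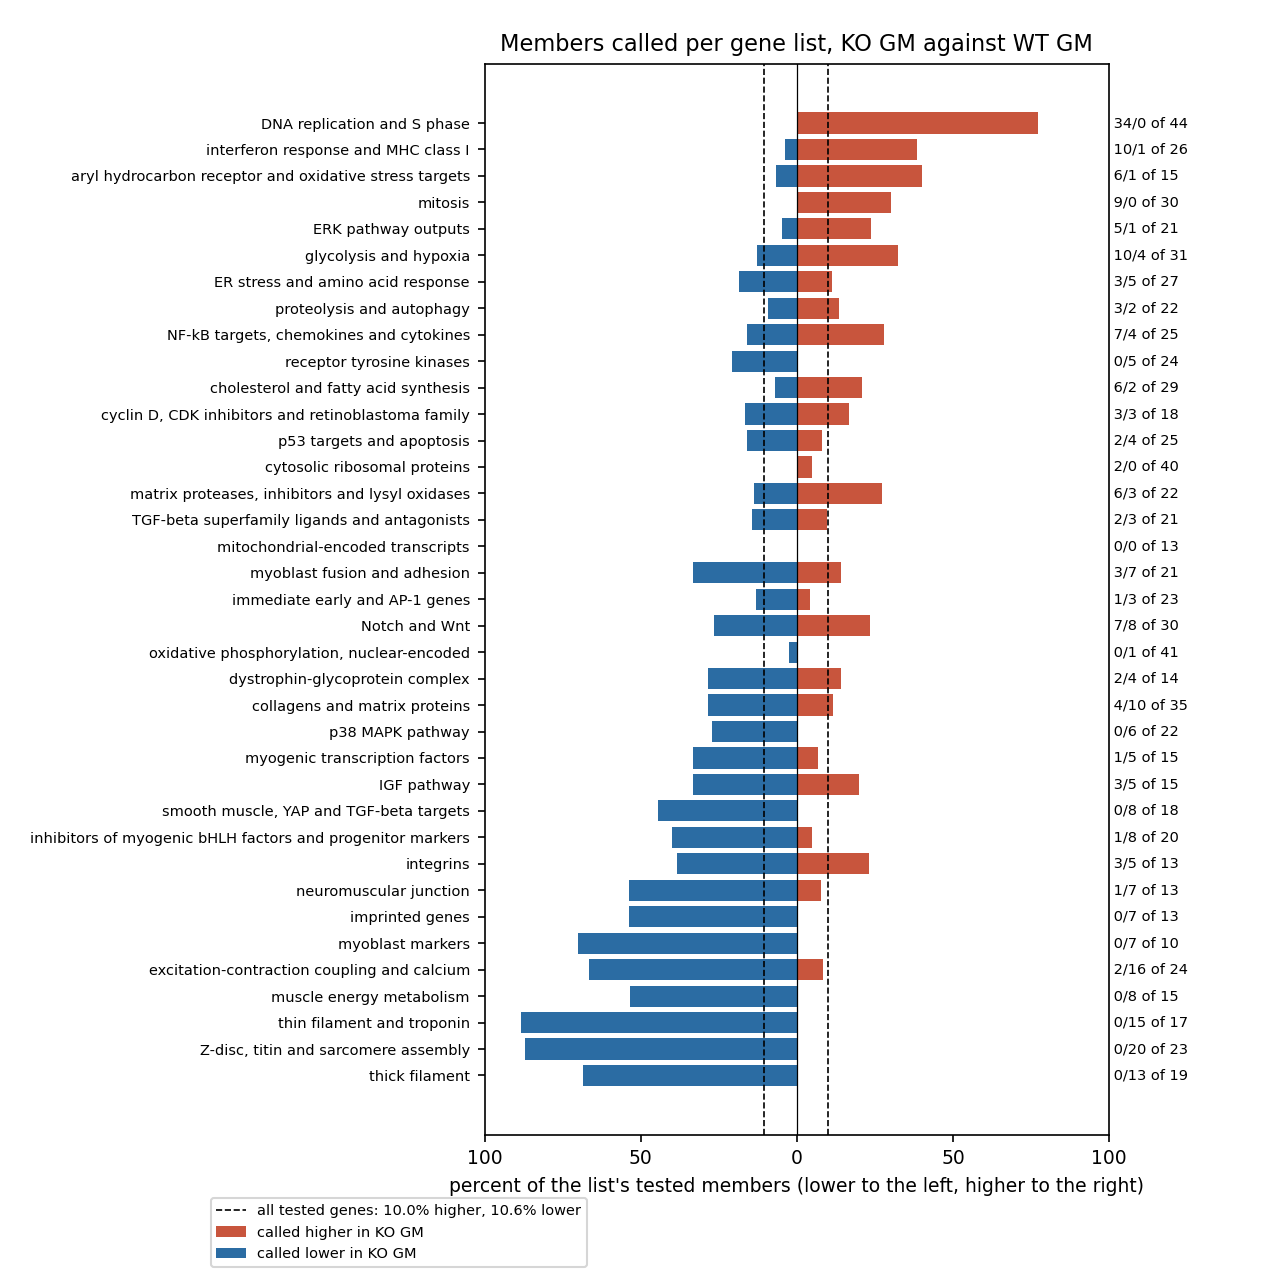
Bars give the percent of each list's tested members called higher (right) or lower (left) in KO GM, for the 37 lists with at least 10 tested members, ordered by median log2 fold change; the dashed lines are the shares over all tested genes, 10.0% and 10.6%. Thin filament and Z-disc lists reach furthest to the left and DNA replication furthest to the right, while oxidative phosphorylation, ribosomal protein and mitochondrial-encoded genes show almost no calls.

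Genes of the matrix around the cells held both falls and rises. Of 35 collagens and matrix proteins, 10 fell (28.6%, against 10.6% of all tested genes). The 4 that rose (11.4%) lie near the 10.0% of all tested genes. The falls numbered 16 when replicate 3 of WT GM and of KO GM were both left out. Col4a1, a basement membrane collagen chain, was at 153, 161 and 191 CPM in the WT GM libraries and 32.0, 41.1 and 57.9 CPM in the KO GM libraries (log2 fold change -1.94 ± 0.18, adjusted p = 3.4e-05). Postn (periostin), which binds collagen I, was at 48.2, 61.7 and 119 CPM in the WT GM libraries and 8.05, 8.58 and 12.4 CPM in the KO GM libraries (log2 fold change -2.97 ± 0.39, adjusted p = 8.1e-04). Col11a1, a fibril chain typical of cartilage, was at 0.720, 1.18 and 1.90 CPM in the WT GM libraries and 5.90, 4.33 and 9.58 CPM in the KO GM libraries (log2 fold change 2.37 ± 0.36, adjusted p = 1.2e-04). Among 22 matrix proteases, inhibitors and lysyl oxidases, 6 rose (27.3%) and 3 fell, or 5 fell without KO GM replicate 3. The share of 3 falls, 13.6%, lies near the 10.6% of all tested genes. Timp1, an inhibitor of matrix metalloproteases, rose, at 411, 439.5 and 559.7 CPM in the WT GM libraries and 819.8, 848 and 933 CPM in the KO GM libraries (log2 fold change 0.88 ± 0.09, adjusted p = 3.1e-07), whereas Loxl2 fell by 7.92 on the log2 scale. Ccn2, a target of YAP and TGF-β signalling that binds matrix, was at 154, 169 and 195 CPM in the WT GM libraries and 49.7, 52.8 and 56.2 CPM in the KO GM libraries (log2 fold change -1.71 ± 0.10, adjusted p = 3.0e-11); 8 of 18 smooth muscle, YAP and TGF-β targets fell and 0 rose. The 8 falls among smooth muscle, YAP and TGF-β targets are 44.4% of that list, against 10.6% of all tested genes. Of 13 integrins, 5 fell (38.5%) and 3 rose (23.1%, against 10.0% of all tested genes). Itga7, the laminin receptor of myoblasts, was at 375 ± 14.7 CPM in WT GM and 241 ± 32.3 CPM in KO GM (SD, n = 3 each; log2 fold change -0.64 ± 0.08, adjusted p = 3.7e-06). Itga6, another laminin receptor chain, rose to 106, 107 and 71.6 CPM from 53.9, 59.0 and 44.01 CPM (log2 fold change 0.86 ± 0.14, adjusted p = 4.0e-04).

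In IGF signalling, a main route to muscle growth, genes moved both ways, with binding proteins and a ligand among the falls. Igfbp5, the binding protein most tied to myoblast differentiation, was at 712, 681 and 643 CPM in the WT GM libraries and 118, 125 and 194 CPM in the KO GM libraries (log2 fold change -2.22 ± 0.16, adjusted p = 1.3e-06). Igfbp4 was at 61.3, 61.4 and 88.2 CPM in the WT GM libraries and 6.12, 6.33 and 8.78 CPM in the KO GM libraries (log2 fold change -3.30 ± 0.24, adjusted p = 3.3e-06). Igf2, the autocrine ligand of differentiating myoblasts, was at 93.1, 114 and 170.3 CPM in the WT GM libraries and 30.8, 27.9 and 42.7 CPM in the KO GM libraries (log2 fold change -1.89 ± 0.24, adjusted p = 4.7e-04). In these 3 genes no KO GM library reached the lowest WT GM library. Of 15 genes of the pathway, 5 fell (33.3%, against 10.6% of all tested genes) and 3 rose (20%, against 10.0%). Of 13 imprinted genes tested, 7 fell (53.8%, against 10.6% of all tested genes) and 0 rose, with a median log2 fold change of -0.70. Igf2 is also imprinted, that is, expressed from 1 parental copy. Its neighbour H19, a long non-coding RNA, was at 968, 1119 and 2257 CPM in the WT GM libraries and 332, 254 and 542 CPM in the KO GM libraries (log2 fold change -1.95 ± 0.37, adjusted p = 0.0062), a fall not called when only the 6 GM libraries were fitted. Peg10, a retrotransposon-derived gene, was at 18.7, 20.3 and 26.3 CPM in the WT GM libraries and 2.58, 3.47 and 3.46 CPM in the KO GM libraries (log2 fold change -2.77 ± 0.19, adjusted p = 5.3e-10). Ndn (necdin), a growth-restraining protein, was at 2.98, 3.55 and 3.59 CPM in the WT GM libraries and 0 CPM in all 3 of the KO GM libraries, at least 36.2-fold lower (adjusted p = 5.5e-07).

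Of 30 Notch and Wnt genes, 7 rose (23.3%, against 10.0% of all tested genes), Wnt5a most, and 8 fell (26.7%, against 10.6%). Without chromosomes 8 and 11, 5 of 24 rose and 8 fell. The Notch target Heyl was at 1.23, 2.15 and 2.10 CPM in the WT GM libraries and 0 CPM in all 3 of the KO GM libraries, at least 19.6-fold lower (adjusted p = 1.9e-06), and Hey1 was at 5.55, 4.94 and 3.79 CPM in the WT GM libraries and 1.83, 2.08 and 2.13 CPM in the KO GM libraries (log2 fold change -1.23 ± 0.24, adjusted p = 6.9e-04). Of 21 TGF-β superfamily ligands and antagonists, 2 rose and 3 fell, or 5 fell without KO GM replicate 3; the shares of 9.52% and 14.3% lie near the 10.0% and 10.6% over all tested genes. Chrdl1, a secreted BMP antagonist, was at 30.5, 35.9 and 68.6 CPM in the WT GM libraries and 2.68, 2.08 and 6.21 CPM in the KO GM libraries (log2 fold change -3.60 ± 0.48, adjusted p = 8.6e-04), opposite to the BMP-type ligand Gdf6. Without KO GM replicate 3, the Chrdl1 log2 change was -4.26. The BMP target Id1, an inhibitor of MyoD-type factors, was at 98.6, 88.5 and 60.3 CPM in the WT GM libraries and 50.8, 52.4 and 50.4 CPM in the KO GM libraries (log2 fold change -0.69 ± 0.13, adjusted p = 7.5e-04), and Id3 was at 198, 205 and 178 CPM in the WT GM libraries and 145, 135 and 158 CPM in the KO GM libraries (log2 fold change -0.41 ± 0.07, adjusted p = 3.2e-04).

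Genes of antigen presentation rose more often than they fell in KO GM. Of 26 interferon response and MHC class I genes, 10 rose (38.5%, against 10.0% of all tested genes) and 1 fell (median 0.34). Without chromosomes 8 and 11, 8 of 21 rose. H2-K1, a classical class I heavy chain, was at 39.8, 44.1 and 38.2 CPM in the WT GM libraries and 127, 124 and 147 CPM in the KO GM libraries (log2 fold change 1.71 ± 0.09, adjusted p = 3.2e-12). Psmb8, an immunoproteasome subunit, was at 0.823, 1.07 and 0.998 CPM in the WT GM libraries and 4.29, 5.29 and 8.60 CPM in the KO GM libraries (log2 fold change 2.65 ± 0.34, adjusted p = 3.9e-06). Nlrc5, the transactivator of class I genes, was at 3.60, 4.298 and 3.99 CPM in the WT GM libraries and 9.45, 10.1 and 8.34 CPM in the KO GM libraries (log2 fold change 1.23 ± 0.19, adjusted p = 3.9e-05). Class I genes are near-identical copies, so their shares of the reads are uncertain. Among 25 NF-κB targets and cytokines, 7 were higher (28%, against 10.0% of all tested genes) and 4 lower. The share of 4, 16%, lies near the 10.6% of all tested genes. Only 2 were lower without KO GM replicate 1 or 2, or without WT GM replicate 2. Without chromosomes 8 and 11, 4 of 20 were higher. Il33, a nuclear alarmin of stromal cells, was at 124, 128 and 169 CPM in the WT GM libraries and 365, 333 and 439 CPM in the KO GM libraries (log2 fold change 1.43 ± 0.11, adjusted p = 5.1e-08). The chemokine Ccl7 went down, at 16.7, 16.0 and 17.4 CPM in the WT GM libraries and 7.62, 7.28 and 8.51 CPM in the KO GM libraries (log2 fold change -1.09 ± 0.12, adjusted p = 6.2e-07).

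Genes of stress and MAPK signalling changed in both directions. Of 22 genes of the p38 pathway, 6 fell (27.3%, against 10.6% of all tested genes) and 0 rose. Dusp1, a phosphatase that inactivates p38 and is itself induced by stress, was at 54.9, 60.4 and 57.6 CPM in the WT GM libraries and 24.0, 24.0 and 31.2 CPM in the KO GM libraries (log2 fold change -1.12 ± 0.11, adjusted p = 5.7e-08). Dusp8 was at 9.26, 10.1 and 6.79 CPM in the WT GM libraries and 3.44, 4.94 and 4.35 CPM in the KO GM libraries (log2 fold change -1.02 ± 0.21, adjusted p = 0.0011), and Mknk2, a kinase of the translation factor eIF4E, was at 113, 109 and 113 CPM in the WT GM libraries and 62.8, 68.0 and 76.3 CPM in the KO GM libraries (log2 fold change -0.70 ± 0.08, adjusted p = 1.0e-06). Of 21 outputs of the ERK pathway, 5 rose (23.8%, against 10.0% of all tested genes) and 1 fell (4.76%, against 10.6%). Egr1, an immediate early factor, was at 61.3, 63.5 and 57.0 CPM in the WT GM libraries and 97.3, 93.2 and 80.3 CPM in the KO GM libraries (log2 fold change 0.57 ± 0.09, adjusted p = 4.6e-05), and Hbegf, an EGF receptor ligand, was at 78.5, 72.5 and 61.1 CPM in the WT GM libraries and 107, 122 and 86.4 CPM in the KO GM libraries (log2 fold change 0.57 ± 0.11, adjusted p = 8.9e-04). The factor Etv1 was the member that fell, at 4.53, 6.45 and 4.49 CPM in the WT GM libraries and 0.322, 0.433 and 0.532 CPM in the KO GM libraries (log2 fold change -3.53 ± 0.38, adjusted p = 3.4e-07). Hmox1, heme oxygenase, was at 89.4, 90.2 and 101.1 CPM in the WT GM libraries and 325, 353 and 234 CPM in the KO GM libraries (log2 fold change 1.70 ± 0.15, adjusted p = 3.7e-06), the largest of 6 rises among 15 aryl hydrocarbon receptor and oxidative stress targets, of which 1 fell. Those 6 rises are 40% of the list, against 10.0% of all tested genes. Tiparp and Ahrr, which restrain the aryl hydrocarbon receptor, rose by log2 values of 0.87 ± 0.10 and 0.99 ± 0.13.

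Housekeeping groups held few calls. Of 41 nuclear genes of oxidative phosphorylation, 1 fell and 0 rose, and of 40 cytosolic ribosomal protein genes, 2 rose and 0 fell, a count that ran from 0 to 5 over the fits without 1 GM library (0 without KO GM replicate 1 or 2 or WT GM replicate 1 or 2, 4 without WT GM replicate 3 and 5 without KO GM replicate 3). Of 13 mitochondrial-encoded transcripts, 0 were called by edgeR, DESeq2 or limma-voom, 0 had an unadjusted p below 0.05 in edgeR, and their median log2 fold change was -0.03.

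The comparison in differentiation medium, which contrasts no library of this one but comes from the same fit, called 1802 genes higher (13.6%) and 2312 lower (17.4%) in the knockout. Of the genes higher in GM, 624 were also higher in DM, which is 46.9% of the GM list and 34.6% of the DM list. Of those lower in GM, 909 were lower in DM, 64.5% of the GM list and 39.3% of the DM list. The direction was opposite for 61 genes higher in GM and 33 lower in GM. Tested directly, the genotype difference itself differed between media in 1174 genes (8.86%), 696 with a higher and 478 with a lower value in GM; these 2 counts rose to 1336 and 1373 when replicate 3 of WT GM and of KO GM were both left out. Over the 12 fits that left out 1 library they ran from 400 and 293, both without WT DM replicate 2, to 951 and 969, both without KO GM replicate 3.

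The replication list differed between media in most of its members. Of its 44 genes, 4 rose and 6 fell in DM (median -0.08), and in 29 the difference was higher in GM by the direct test and in 0 lower. Cdc6 rose in GM but had a log2 fold change of -0.12 ± 0.10 in DM (difference between media 1.29 ± 0.14 on the log2 scale, adjusted p = 4.0e-06). Mcm5 rose in both, by 1.36 and 0.43 (difference 0.93 ± 0.12 on the log2 scale, adjusted p = 5.8e-05). Glycolysis and hypoxia genes also parted. In GM 10 of 31 rose (32.3%) and 4 fell (12.9%), against 10.0% and 10.6% of all tested genes. The share of falls thus lies near that of all tested genes. Only 2 fell without KO GM replicate 1, WT GM replicate 1 or WT GM replicate 2. In DM 0 rose and 18 fell, where 17.4% of all tested genes fell. By the direct test 16 had a higher value in GM, where 8.86% of all tested genes differed in either direction. Ero1l, an oxidase of protein folding that hypoxia induces, had log2 fold changes of 0.50 ± 0.09 in GM and -0.51 ± 0.09 in DM. Among ERK outputs 7 of 21 had a higher and 1 a lower value in GM, and 12 fell in DM. Egr1 showed the sign change, at 0.57 ± 0.09 in GM and -0.74 ± 0.09 in DM. NF-κB targets went the other way, with 18 of 25 higher in DM and a lower value in GM for 10. Ccl7, lower in GM, was higher in DM by 0.85 (difference -1.94 ± 0.16 on the log2 scale, adjusted p = 3.1e-07). Sarcomere lists were low in both media: by the direct test 2 of 19 thick filament, 0 of 17 thin filament and 5 of 23 Z-disc genes had a lower value in GM, and 0, 1 and 0 a higher one. The thin filament count of higher values was 4 without WT GM replicate 3 and also when replicate 3 of both GM groups was left out. The 3 counts of lower values rested on the libraries: they were 6, 7 and 14 when replicate 3 of WT GM and of KO GM were both left out, and 4, 1 and 12 without KO GM replicate 3 alone. Without KO GM replicate 1 they were 0, 0 and 3, without KO GM replicate 2 they were 0, 0 and 2, and the thick filament count was also 0 without WT GM replicate 2. The replication count was 35 without both replicate 3 libraries. Myod1 had fallen further in GM, with -0.97 against -0.33 in DM (difference -0.64 ± 0.12 on the log2 scale, adjusted p = 0.0025). Igfbp5 showed the same, -2.22 against -0.54 (difference -1.68 ± 0.21 on the log2 scale, adjusted p = 8.5e-04).

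**Figure D4:**
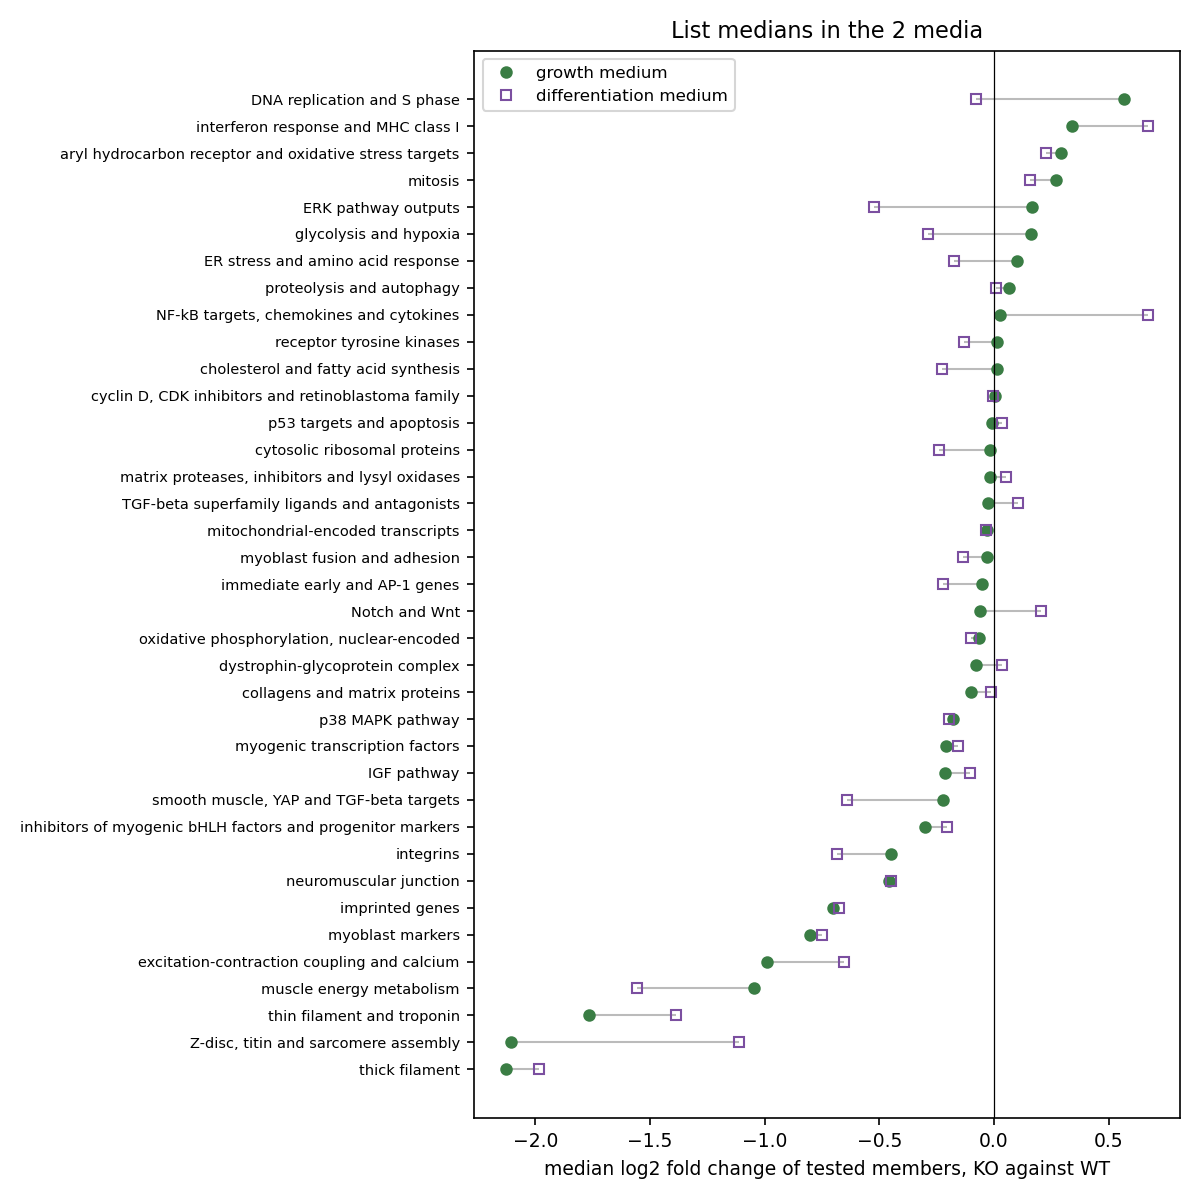
For each of the 37 lists with at least 10 tested members, a filled circle gives the median log2 fold change of KO against WT in growth medium and an open square that in differentiation medium. DNA replication (0.57 and -0.08), ERK outputs (0.17 and -0.52) and NF-κB targets (0.03 and 0.67) lie apart between media, as do Z-disc genes (-2.11 and -1.11), which have the widest gap of the 37 lists, while thick filament genes (-2.13 and -1.98) lie close.

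The calls were not spread evenly over the chromosomes. Placed by symbol in RefSeq gene order, which was possible for 12565 tested genes (94.8%), the 1043 genes of chromosome 11 had a median log2 fold change of 0.20, with 305 called higher and 52 lower. The shift was 0.19, 0.20 and 0.18 in the 3 KO GM libraries against the WT GM mean, and 0.20 in DM. Its share called higher was 29.2%, against 10.0% over all genes. On chromosome 8, 153 of 691 genes (22.1%) were higher and 62 lower (median 0.07), and on chromosome 9, 103 of 717 (14.4%) were higher (median 0.09). No other chromosome had a median above 0.04. Chromosomes 19, 10 and 15 had the lowest medians, -0.09, -0.08 and -0.07 in GM and -0.11, -0.15 and -0.09 in DM. Without chromosomes 8 and 11, 872 genes were higher and 1296 lower. Within chromosome 8 the rises were gathered: runs of 13 and 6 neighbouring tested genes, from Cnep1r1 to Irx3 and from Cfap20 to Cnot1, were all called higher. From Heatr3 to Ndrg4, ends chosen after the values were seen, 40 of 50 genes were higher and 1 lower, with a median of 0.63 in GM and 0.65 in DM. The Ndrg4 log2 change was not called without WT GM replicate 1 (adjusted p = 0.051). Irx3, a homeobox gene, was at 44.95, 47.9 and 38.2 CPM in the WT GM libraries and 96.0, 122 and 114 CPM in the KO GM libraries (log2 fold change 1.34 ± 0.10, adjusted p = 2.8e-09). Cnep1r1, part of a nuclear envelope phosphatase, was at 91.2, 91.4 and 94.7 CPM in the WT GM libraries and 154, 152 and 141 CPM in the KO GM libraries (log2 fold change 0.69 ± 0.08, adjusted p = 6.3e-07). A further run of 6 neighbours, from Tnni1 to Cacna1s on chromosome 1, was lower; both are muscle genes, the slow troponin I and the calcium channel of excitation-contraction coupling. Tnni1 was at 63.2, 77.4 and 131 CPM in the WT GM libraries and 16.7, 9.88 and 27.9 CPM in the KO GM libraries (log2 fold change -2.32 ± 0.38, adjusted p = 0.0028), and the groups of Cacna1s overlapped (-2.09 ± 0.61, adjusted p = 0.044). Neither fall was called when only the 6 GM libraries were fitted. The Cacna1s log2 change was -2.99 without KO GM replicate 3 and -1.46 without WT GM replicate 3. It was also not called without KO GM replicate 1 or 2 (adjusted p = 0.12 and 0.13) or without WT GM replicate 2 or 3 (adjusted p = 0.083 and 0.11). The part of chromosome position in the gene calls was not tested.

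**Figure D5:**
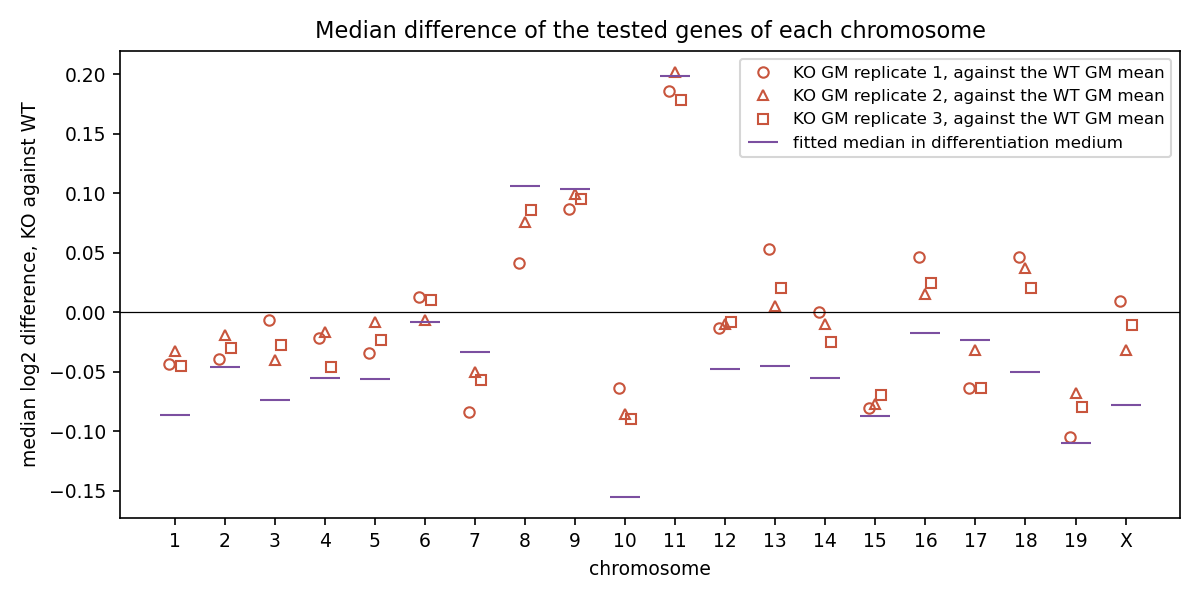
The y axis gives the median log2 difference of the tested genes of each chromosome; open symbols are the 3 KO GM libraries, each against the mean of the 3 WT GM libraries (log2 of CPM + 0.5), and dashes the fitted median in differentiation medium. All 3 libraries lie between 0.18 and 0.20 on chromosome 11. Chromosome 9 is next in each library, while chromosome 8 is at 0.04 in KO GM replicate 1, below chromosomes 13, 16 and 18 there.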

How the data were processed

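RNA-seq of total RNA was deposited by the authors as 1 table of raw counts per Ensembl gene for the 12 libraries; 4 empty columns were not used. Build GRCm39, DESeq2 1.40.2 under R 4.3.1, RSEM 1.3.3 and STAR 2.7.1a are named, per the submitters' processing notes, with no role or order. No source used here gives the counting step, annotation release or strand setting, so overlapping, antisense and near-identical genes may share reads.

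From these counts, edgeR 4.0.16 in R 4.3.3 fitted the 4 group means over all 12 libraries (filterByExpr by group, TMM scaling, robust quasi-likelihood, 2-sided tests). P-values were Benjamini-Hochberg adjusted over 13250 genes and called below 0.05; the method was tested on simulated data. The contrasts were KO GM minus WT GM, KO DM minus WT DM, and the first minus the second. The GM libraries held 9134485 to 11536396 counts, and counting precision, like a floor of 3 counts, covers counting error only. The members and the 44 gene lists were chosen with earlier results of these data known, so they are no independent support.

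Named genes were the p38 kinases, the 12 largest rises and falls of called genes whose groups do not overlap and whose higher group reaches 10 CPM, genes at 0 in 1 group with at least 5 CPM in the other, up to 4 called members of each list with the largest change, a fixed panel, and the ends of runs of 6 or more neighbours called alike; 1 such run is not reported here. Genes were placed by symbol in RefSeq order for 12565 tested genes. Promoters are the first RefSeq start listed for a symbol, in build GRCm38.p6, which is not the build of the counts; no count was placed by coordinate. Alternatives were other scalings, filters and tests (DESeq2 1.42.0, limma 3.58.1), only the 6 GM libraries, a replicate term, each library left out and, chosen after seeing the data, no genes of chromosomes 8 and 11.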

Additional observations from a re-analysis of the deposited data

Results flagged for a closer look

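These results are listed because the knockout difference itself differed between the media by a direct test, the contrast of growth medium minus differentiation medium in edgeR's quasi-likelihood fit (adjusted p below 0.05 over all tested genes; 3 libraries a group). It was higher in growth medium in 696 genes and lower in 478. The values that follow are that difference between media, on the log2 scale, for the genes named in the text.

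Among muscle genes the value was lower in growth medium for Myl1 (-2.02), Musk (-1.23), Tmem182 (-0.96), Chrnd (-0.94), Myod1 (-0.64), Des (-0.52), Cdh15 (-0.40) and Erbb3 (-1.09). All 8 fell in growth medium. It was also lower for the growth factor binding proteins Igfbp5 (-1.68) and Igfbp4 (-1.23), the proteoglycan Dcn (-3.11), the tubulin-binding Tppp3 (-1.81), the BMP targets Id3 (-0.97) and Id1 (-0.73), the phosphatase Dusp1 (-0.80) and the chemokine Ccl7 (-1.94). For 4 genes that rose in growth medium the value was lower there as well, at -2.14 for Mmp3, -1.37 for Gpr141, -1.05 for Nlrc5 and -0.80 for H2-K1.

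The value was higher in growth medium for the cell cycle genes Cdc6 (1.29), Chaf1b (1.06), Mcm5 (0.93), Mybl2 (0.81), Gins3 (0.64) and Rbl1 (0.62). It was higher for Egr1 (1.32), Hbegf (0.96), Ero1l (1.01), Tiparp (1.02), Itga6 (1.87), Timp1 (0.56), Tnfsf15 (0.87), Rgs17 (0.87), Irx3 (0.70) and Ndrg4 (0.64), which rose in growth medium. Hey1 (2.01), Peg10 (1.27) and Pmaip1 (1.61) had higher values although they fell in growth medium, that is, their falls were larger in differentiation medium.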

How the results depend on the processing

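The counts of genes called higher and lower in KO GM, 1330 and 1410, were 1298 and 1372 with DESeq2 and 1334 and 1407 with limma-voom. They were 1475 and 1521 with no filter on low counts. With only the 6 GM libraries 864 were higher and 1002 lower. Without chromosomes 8 and 11, chosen after seeing the data, 872 were higher. Scaling by total counts gave 1175 and 1540, so that 43.3% of calls were higher against 48.5%; no scaling moved the median of all genes by more than 0.1 on the log2 scale. When replicate 3 of WT GM and of KO GM were both left out, the knockout difference was higher in GM than in DM in 1336 genes and lower in 1373, against 696 and 478. Leaving out 1 library at a time gave 963 to 1473 genes higher, 1130 to 1563 lower, 186 to 258 at least 2-fold higher and 530 to 632 at least 2-fold lower in GM, and 400 to 951 and 293 to 969 for the difference between media. The Mapk12 log2 change, 0.13 and not called, ran from -0.031 without KO GM replicate 1 to 0.23 without KO GM replicate 3, and was -0.0085 without WT GM replicate 3; the cause was not tested. Of the genes named, Cacna1s, H19, Tnni1 and Ndrg4 lost their call, and Mki67 gained one, under at least 1 setting.

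With the replicate number as a block, 1557 genes were called higher and 1573 lower in GM, 209 and 583 at 2-fold or more, and 921 and 666 for the difference between media. The labels do not say that numbers pair the libraries. Deviations of same-numbered libraries correlated at -0.06, 0.10 and 0.19, and not every library correlated best with its own number, so the pairing was not used. Among the genes named, the block ended the call of Cacna1s and gave one to Mki67.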

Other observations

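Of 9 adipogenic marker genes tested, 4 fell in KO GM (44.4%, against 10.6% of all tested genes) and 0 rose, with a median log2 fold change of -0.66. Lpl, the lipase that releases fatty acids from lipoproteins, was at 39.2, 50.7 and 75.2 CPM in the WT GM libraries and 3.33, 2.34 and 9.93 CPM in the KO GM libraries (log2 fold change -3.38 ± 0.44, adjusted p = 7.3e-04 by edgeR's quasi-likelihood test). Without KO GM replicate 3 the Lpl log2 change was -4.30. Fabp4, a fatty acid binding protein of fat cells, was at 4.42, 5.27 and 11.2 CPM in the WT GM libraries and 1.29, 0.953 and 2.22 CPM in the KO GM libraries (log2 fold change -2.22 ± 0.38, adjusted p = 1.6e-04). Cebpa, a transcription factor of fat cell differentiation, was at 35.5, 34.9 and 34.4 CPM in the WT GM libraries and 15.8, 17.2 and 29.1 CPM in the KO GM libraries (log2 fold change -0.75 ± 0.16, adjusted p = 0.0023). In each of these 3 genes the groups did not overlap. Of 29 genes of cholesterol and fatty acid synthesis, 6 rose (20.7%) and 2 fell (6.90%), or 4 fell without KO GM replicate 3. Without chromosomes 8 and 11 only 2 of 23 rose, a share below the 10.0% over all tested genes. Scd1, a fatty acid desaturase, was at 277, 292 and 380.4 CPM in the WT GM libraries and 167, 153 and 216 CPM in the KO GM libraries (log2 fold change -0.82 ± 0.12, adjusted p = 1.7e-04). Of 25 p53 targets and apoptosis genes, 2 rose and 4 fell, or 7 fell when replicate 3 of WT GM and of KO GM were both left out. These shares, 8.0% and 16.0%, lie near the 10.0% and 10.6% over all tested genes. Pmaip1, encoding the BH3-only protein Noxa, was at 9.67, 10.7 and 13.3 CPM in the WT GM libraries and 2.68, 1.99 and 1.24 CPM in the KO GM libraries (log2 fold change -2.53 ± 0.25, adjusted p = 1.7e-07). Alpl, the alkaline phosphatase of mineralising cells, was at 4.94, 3.22 and 5.49 CPM in the WT GM libraries and 0.322, 0.0867 and 0.266 CPM in the KO GM libraries (log2 fold change -4.31 ± 0.50, adjusted p = 1.2e-06).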
